A study of Mus musculus with 9 samples.

Results

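The interferon response genes followed here are 42 genes of the mouse that cells switch on, or raise, after contact with interferon. They were taken by gene symbol from the table of expected counts, in which all 42 were found, each in 1 row, among 54146 genes. They were measured in T follicular helper (Tfh) cells, the CD4 T cells that help B cells in germinal centres, sorted from Peyer's patches as cells carrying CD4, CXCR5 and PD1. WT/mut cells carry 1 wild-type and 1 mutant allele of Tgfbr1, a subunit of the TGF-beta receptor (5 libraries, replicates 6 to 10), and WT cells come from wild-type littermates (4 libraries, replicates 1, 3, 4 and 5). The labels give no treatment, age, sex, litter or batch and do not say what the mutation is. Whether the libraries stem from different mice is also not in the labels, and a p-value here speaks of the spread among these 9 libraries alone. WT/mut replicate 7 stood apart, with 30143 genes detected against 17904 to 20264 in the other 8 libraries; without it 13 members were higher at an unadjusted p under 0.05 (4.26% of all tested genes), where 14 (5.69% of all tested genes) were so with all libraries.

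Interferons are secreted proteins that warn cells of infection. Type I interferons act through the receptor chains IFNAR1 and IFNAR2 and the kinases JAK1 and TYK2, which lead to a complex with STAT2 and IRF9 that binds the interferon-stimulated response element. Type II interferon, the product of Ifng in T and natural killer cells, acts through IFNGR1 and IFNGR2 and leads to binding at the gamma-activated site. The proteins made in response sense viral nucleic acids, cut or trap viral RNA, attach or remove the ubiquitin-like protein ISG15, or, as GTPases, attack membranes around intracellular microbes.

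No member passed the test between genotypes. With edgeR's quasi-likelihood test and Benjamini-Hochberg adjustment over all 15521 tested genes, 0 of the 41 tested members had an adjusted p under 0.05 (0.122% of all tested genes did, 0.0322% higher and 0.0902% lower in WT/mut), and the lowest adjusted p among members was 0.106. At an unadjusted p under 0.05, 14 of the 41 were higher in WT/mut cells and 0 were lower, where 5.69% of all tested genes were higher and 6.46% lower at that level. All 14 stood at the filter level of 0.287 CPM or above in each of the 4 WT libraries, so none of them was tested only because it was high in WT/mut. A positive fold change was found for 35 of the 41, as for 50.2% of all tested genes, and the median log2 fold change of WT/mut over WT was 0.37, beside 0.00150 over all tested genes. For 6 members every WT/mut library stood above every WT library (2.06% of all tested genes), and for 0 the order was the opposite (2.4%). DESeq2 called 8 members, all higher in WT/mut (1.46% of its tested genes were called higher). They were Rtp4, Ifi27l2a, Oas1a, Ifit2, Rsad2, Xaf1, Usp18 and Ifit3, with DESeq2 adjusted p from 0.000460 for Rtp4 to 0.0414 for Ifit3.

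The values of the groups of members differed by role. Among antiviral effectors 8 of 13 tested genes were higher in WT/mut at an unadjusted p under 0.05, and the median log2 fold change was 0.51. The mixed group of other induced genes had 4 of 8, with a median of 0.66. The count was 0 of 7 for the GTPases (median 0.04), 0 of 4 for the transcription factors (median 0.11) and 0 of 3 for the RNA sensors (median 0.13). Over all tested genes 5.69% were higher at that level, so counts of 0 in groups this small are close to that share. All 7 GTPases and all 4 transcription factors were among the 21 tested members of highest WT level per kilobase of exon. Role and level were thus not separate for them. The difference between these role groups was not tested.

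**Figure D1:**
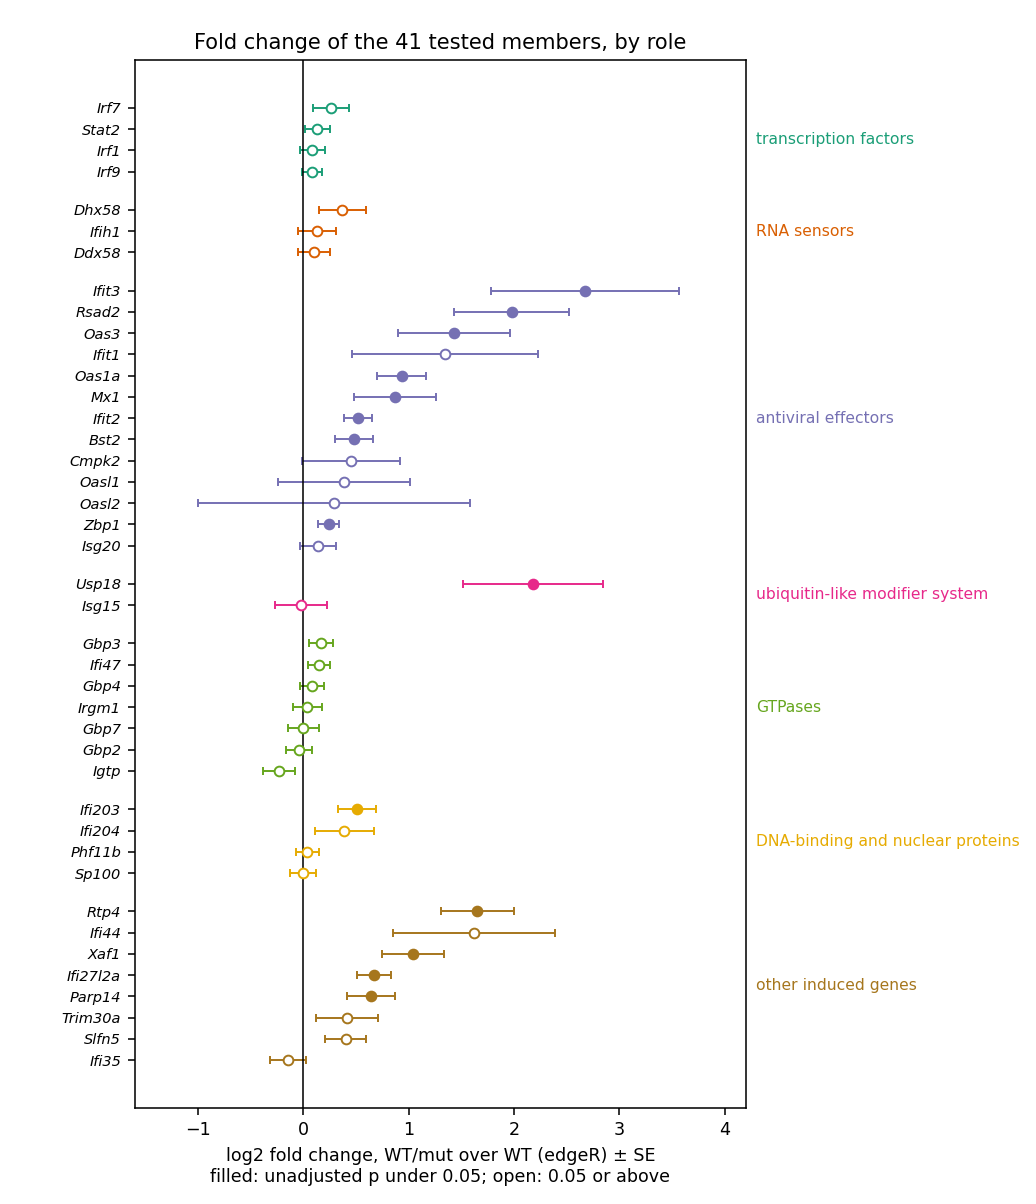
Log2 fold change of WT/mut over WT with its SE (edgeR, 5 against 4 libraries) for each of the 41 tested members, grouped and coloured by role, with filled points for an unadjusted p under 0.05. Filled points stand among the antiviral effectors and the other induced genes, with Usp18 and Ifi203 besides, while the GTPases and transcription factors lie close to 0.

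Many members carry the letters of the response element just before their start site, and the promoters below show how these letters sit in genes of different behaviour. RefSeq promoters (GRCm38.p6, from 250 bases before to 50 bases after the start) were found for 32 of the 42 members. The letters GAAA, a pair of any bases and again GAAA, on either strand, the core of the interferon-stimulated response element, occurred in 19 of these 32 (59.4%), and in 3.99% of all 27025 genes with a promoter. The letters TTCNNNGAA, the core of the gamma-activated site, which read alike on both strands, occurred in 8 of the 32 (25.0%) and in 9.55% of all genes. In the sequences, lower case marks the last 160 bases before the start, read 5′ to 3′ on the strand of the gene, and capitals mark matches to this response element core on either strand, which can overlap each other. Ifit3, Oas1a, Rsad2 and Bst2 were among the 14 members at an unadjusted p under 0.05, and Isg15, Igtp and Gbp7 were not.
Ifit3 (chr19:34583369-34583528, plus strand): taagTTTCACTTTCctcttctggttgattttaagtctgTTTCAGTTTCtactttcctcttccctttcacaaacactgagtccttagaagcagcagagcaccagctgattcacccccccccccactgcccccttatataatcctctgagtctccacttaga
Oas1a (chr5:120907526-120907685, minus strand): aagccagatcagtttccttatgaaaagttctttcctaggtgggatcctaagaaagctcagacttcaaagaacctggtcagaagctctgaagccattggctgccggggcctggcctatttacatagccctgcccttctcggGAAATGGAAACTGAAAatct
Rsad2 (chr12:26456453-26456612, minus strand): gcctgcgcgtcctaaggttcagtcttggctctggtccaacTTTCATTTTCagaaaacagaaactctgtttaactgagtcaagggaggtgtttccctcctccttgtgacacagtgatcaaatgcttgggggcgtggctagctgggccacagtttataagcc
Bst2 (chr8:71537473-71537632, minus strand): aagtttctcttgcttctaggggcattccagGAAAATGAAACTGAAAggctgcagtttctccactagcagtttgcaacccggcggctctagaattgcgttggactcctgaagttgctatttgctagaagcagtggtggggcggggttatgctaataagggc
Isg15 (chr4:156200819-156200978, minus strand): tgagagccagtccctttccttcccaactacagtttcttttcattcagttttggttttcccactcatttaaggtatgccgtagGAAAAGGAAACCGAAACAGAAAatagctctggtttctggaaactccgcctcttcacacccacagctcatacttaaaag
Igtp (chr11:58199396-58199555, plus strand): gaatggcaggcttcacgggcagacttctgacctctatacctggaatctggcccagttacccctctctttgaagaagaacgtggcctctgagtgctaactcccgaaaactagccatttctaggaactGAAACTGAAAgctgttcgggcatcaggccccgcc
Gbp7 (chr3:142530176-142530335, plus strand): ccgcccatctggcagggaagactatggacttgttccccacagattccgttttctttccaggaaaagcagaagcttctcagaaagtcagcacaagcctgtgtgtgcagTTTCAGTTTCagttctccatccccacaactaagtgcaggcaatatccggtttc
The run of capitals in Isg15 joins 3 overlapping matches and is the longest of the 7, and those of Oas1a and Bst2 join a pair. All 7 printed promoters hold a match, so they show where the letters sit and not how often either kind of gene has them. Of the members with a promoter, 6 of 8 at an unadjusted p under 0.05 and 13 of the other 24 had a match. Ifit2 and Xaf1 were at an unadjusted p under 0.05 and had none. A match is a description of the letters, and binding was not measured.

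Of the antiviral effectors, Oas1a and Ifit2 separated the genotypes in every library. They lie in clusters of related genes, Ifit1, Ifit2 and Ifit3 on chromosome 19 (34550694 to 34650009, GRCm38) and Oas1a, Oas2 and Oas3 on chromosome 5 (120730333 to 120907521). In what follows, the CPM values (counts scaled to a common library size with TMM factors) are listed for WT/mut replicates 6, 7, 8, 9 and 10 and then for WT replicates 1, 3, 4 and 5. Oas1a, an oligoadenylate synthetase whose product activates the RNA-cutting enzyme RNase L, had CPM values of 14.5, 14.9, 10.6, 11.9 and 16.8 in WT/mut and 5.41, 7.16, 10.1 and 6.14 in WT. The lowest WT/mut library stood just above WT replicate 4, and the log2 fold change was 0.93 ± 0.23 (SE, edgeR adjusted p = 0.193). Ifit2, which belongs to a family of proteins that bind foreign RNA, had CPM values of 31.2, 31.2, 24.2, 30.7 and 31.4 against 22.8, 18.4, 19.2 and 23.0. Replicate 8 was the WT/mut library closest to WT, and the log2 fold change was 0.51 ± 0.13 (edgeR adjusted p = 0.218).

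Bst2 and Zbp1 differed less, and without overlap. Bst2, which encodes tetherin, a membrane protein that holds budding viruses at the cell surface, had CPM values of 11.2, 10.3, 9.28, 10.9 and 12.8 in WT/mut and 8.70, 8.79, 6.43 and 7.36 in WT. All WT/mut libraries were above all WT libraries (0.48 ± 0.18, edgeR adjusted p = 0.344). Zbp1, a sensor of Z-form nucleic acids that can start cell death, had CPM values of 63.1, 63.5, 57.3, 72.9 and 72.6 against 56.7, 53.4, 57.0 and 56.2. Its WT values lay close together, and WT/mut replicate 8 exceeded the highest of them by less than 1 CPM (0.24 ± 0.10, edgeR adjusted p = 0.383).

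Rsad2, Oas3, Mx1 and Ifit3 had overlapping groups. Rsad2 encodes viperin, an enzyme that makes a chain-terminating nucleotide, and had CPM values of 3.25, 2.40, 1.64, 3.31 and 5.61 in WT/mut and 0.696, 0.455, 1.69 and 0.461 in WT. WT replicate 4 lay above WT/mut replicate 8, and the other libraries were apart (1.98 ± 0.54, edgeR adjusted p = 0.246). Oas3, another oligoadenylate synthetase, had CPM values of 2.61, 3.46, 3.00, 7.76 and 6.65 against 0.506, 1.65, 3.23 and 1.57, so that WT replicate 4 was again within the WT/mut range (1.43 ± 0.53, edgeR adjusted p = 0.340). Mx1, a dynamin-like protein that blocks viruses such as influenza, was found at CPM values of 13.3, 9.78, 6.79, 18.4 and 9.53 against 2.28, 7.64, 8.20 and 7.20. WT replicate 1 was low, and WT/mut replicate 8 lay below the other 3 WT libraries (0.87 ± 0.39, edgeR adjusted p = 0.404). Ifit3, which partners other IFIT proteins, was at 1.14, 2.52, 2.52, 4.02 and 26.7 CPM against 1.90, 0.958, 0.552 and 1.22 CPM. Its log2 fold change of 2.67 ± 0.89 (edgeR adjusted p = 0.312) was the largest of the 41, and it became 1.14 ± 0.54 without WT/mut replicate 10.

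The remaining antiviral effectors had log2 fold changes between 0.14 and 1.35, with unadjusted p above 0.05. Ifit1, the cap-binding member of its family, reached 56.0 CPM in WT/mut replicate 10 and 4.96 to 11.8 CPM in the other WT/mut libraries, within the WT range of 1.36 to 18.3 CPM. Its log2 fold change was 1.35 ± 0.88 (edgeR adjusted p = 0.537), and 0.24 without replicate 10. Cmpk2, a mitochondrial nucleotide kinase next to Rsad2 on chromosome 12, had 17.8 CPM in replicate 10 against 3.97 to 6.97 CPM in the other WT/mut libraries and 3.99 to 7.85 CPM in WT. Without replicate 10 its log2 fold change turned from 0.45 to -0.16. Isg20, an exonuclease and the effector with the highest WT level per length (18.2 CPM per kilobase of exon), had CPM values of 34.9, 37.9, 34.2, 30.2 and 49.6 against 43.2, 28.9, 31.5 and 32.0, and the ranges overlapped (0.14 ± 0.17, edgeR adjusted p = 0.750). Oasl1 and Oasl2 stayed at or below 5.45 CPM in every library and gave no direction, with SE of 0.62 and 1.29. Oas2 was too low to be tested: all 33 WT/mut counts came from replicate 8 and the 2 WT counts from replicate 1.

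The ubiquitin-like system held a member with one of the largest differences and a member with nearly none. Usp18, the protease that removes ISG15 from proteins and also restrains the type I receptor, had CPM values of 4.18, 2.87, 2.01, 3.38 and 16.5 in WT/mut and 2.37, 0.958, 0.727 and 1.06 in WT. Only WT replicate 1 and WT/mut replicate 8 crossed (2.18 ± 0.67, edgeR adjusted p = 0.278), and the value was 1.28 without WT/mut replicate 10. Isg15 itself had CPM values of 21.1, 24.1, 21.3, 23.1 and 44.1 against 33.7, 31.0, 19.3 and 24.9. Replicate 10 was the highest of all 9 libraries while the other 4 WT/mut libraries lay within the WT range (-0.02 ± 0.25, edgeR adjusted p = 0.976).

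**Figure D2:**
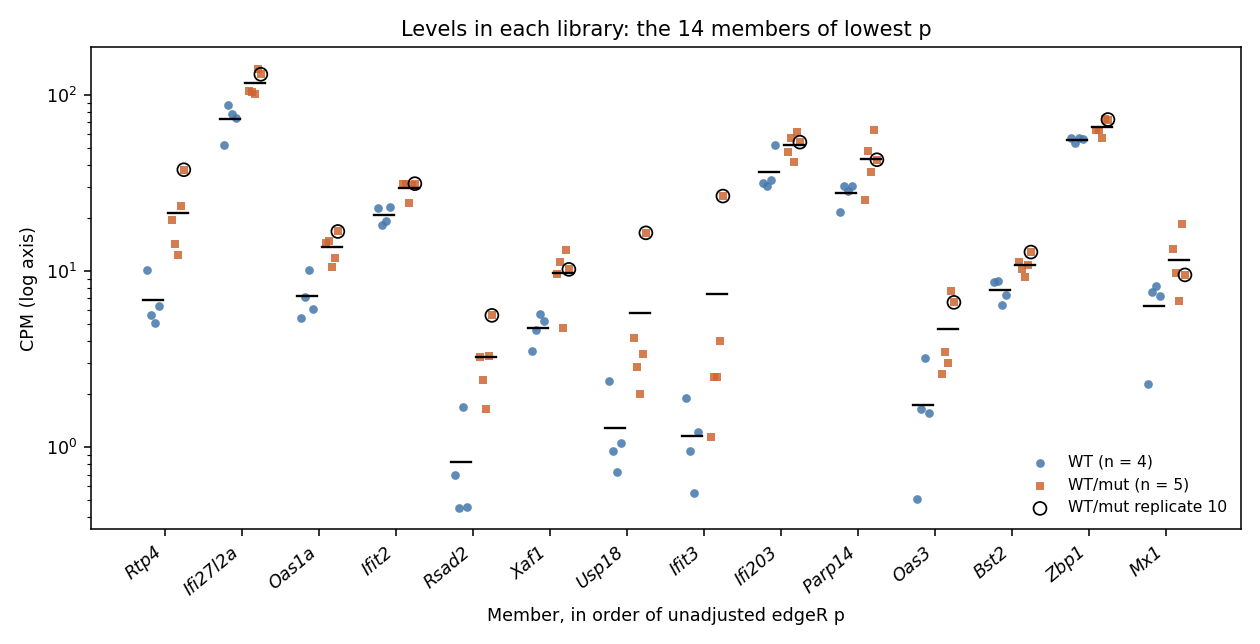
CPM on a log axis in each of the 4 WT libraries (circles) and 5 WT/mut libraries (squares) for the 14 members of lowest unadjusted p, with a line at each group mean and WT/mut replicate 10 ringed. The groups do not overlap for Rtp4, Ifi27l2a, Oas1a, Ifit2, Bst2 and Zbp1, and replicate 10 lies far above the other libraries for Ifit3 and Usp18.

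Rtp4 had the lowest p of all members. Its product is an interferon-induced transporter of membrane receptors, and its CPM values were 19.4, 14.3, 12.3, 23.4 and 37.7 in WT/mut and 10.2, 5.65, 5.09 and 6.32 in WT. Every WT/mut library stood above every WT library, with group means of 21.4 ± 10.1 (SD, n = 5) and 6.82 ± 2.32 CPM (SD, n = 4) and a log2 fold change of 1.65 ± 0.34 (edgeR adjusted p = 0.106). Without WT/mut replicate 10 it was 1.35 ± 0.29. The span of Rtp4 (chromosome 16, 23520291 to 23614222 on GRCm38) overlaps that of Masp1 on the opposite strand. The library kit does not mark the strand, so reads from any exon bases that a pair shares cannot be told apart. The same holds for the spans of Usp18, Irf1, Irf7, Ifi47, Gbp2, Sp100, Ifi35, Dhx58, Oas2, Oasl1, Slfn5 and Trim30a. Those of Irf9, Gbp4, Gbp7, Igtp, Ifi203 and Parp14, and also of Rtp4, Ifi47 and Sp100, overlap a gene on the same strand. Overlap was read from whole gene spans, and whether exons overlap was not checked.

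Ifi27l2a, a small protein of mitochondria and the nuclear envelope, had the highest level per length of all members, at 158 CPM per kilobase in WT and 252 in WT/mut. Its CPM values were 106, 104, 101, 140 and 131 in WT/mut and 51.8, 87.6, 78.5 and 74.3 in WT. The ranges were apart, and the log2 fold change was 0.67 ± 0.16 (edgeR adjusted p = 0.177). Xaf1, an antagonist of a caspase inhibitor, had CPM values of 9.62, 11.2, 4.77, 13.2 and 10.2 against 3.51, 4.62, 5.70 and 5.24. WT/mut replicate 8 lay inside the WT range and the other 4 lay above it (1.04 ± 0.30, edgeR adjusted p = 0.260). Parp14, an ADP-ribosyltransferase, had CPM values of 25.3, 48.1, 36.7, 63.5 and 42.9 against 21.6, 30.3, 28.6 and 30.6, where WT/mut replicate 6 was inside the WT range (0.64 ± 0.23, edgeR adjusted p = 0.329).

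Ifi44, Slfn5 and Trim30a had log2 fold changes of 1.62, 0.40 and 0.41 with unadjusted p above 0.05. Ifi35, which encodes a partner of the protein NMI, was the member of this group with a negative value. Its CPM values of 97.3, 81.9, 87.3, 76.0 and 110 in WT/mut overlapped those of 137, 96.8, 77.4 and 89.5 in WT (-0.15 ± 0.17, edgeR adjusted p = 0.740).

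The interferon-inducible GTPases were abundant and differed little between genotypes. Ifi47, which belongs to the immunity-related GTPases and had the highest WT level per length of this group (102 CPM per kilobase), had CPM values of 278, 282, 226, 319 and 297 in WT/mut and 253, 261, 242 and 257 in WT. The WT libraries lay within the WT/mut range (0.15 ± 0.10, edgeR adjusted p = 0.550). Igtp, of the same family, was at 157, 175, 164, 171 and 213 CPM against 268, 162, 179 and 217 CPM, the most negative log2 fold change of all members (-0.23 ± 0.15, edgeR adjusted p = 0.532).

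The guanylate-binding proteins, which coat and break microbe-holding vacuoles, are encoded in part by neighbours on chromosome 3, where Gbp7, Gbp3 and Gbp2 lie between 142530342 and 142638008. Gbp2 had CPM values of 43.0, 46.8, 44.2, 46.2 and 50.8 against 50.2, 39.0, 44.4 and 56.9 (-0.04 ± 0.12, edgeR adjusted p = 0.912). Gbp7 had CPM values of 94.4, 96.4, 79.5, 80.1 and 116 against 119, 91.3, 83.3 and 80.6, with a log2 fold change of -0.00102 ± 0.15 (edgeR adjusted p = 0.998). In both genes the groups overlapped over most of their range. Gbp3, Gbp4 and Irgm1 had log2 fold changes of 0.17, 0.08 and 0.04. Over the 7 GTPases the SE lay between 0.10 and 0.15.

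The transcription factors of the response had similar levels in both genotypes. Irf1, the factor closest to type II interferon and the one with the highest WT level per length (72.1 CPM per kilobase), had CPM values of 315, 318, 294, 306 and 288 in WT/mut and 227, 317, 340 and 264 in WT. The WT/mut libraries lay within the WT range (0.09 ± 0.12, edgeR adjusted p = 0.785). Stat2 and Irf9, which take part in the type I complex, stood at 0.13 ± 0.12 and 0.08 ± 0.09. Irf7, which amplifies type I interferon production, was at 103 CPM in WT/mut replicate 10 and at 55.0 to 72.6 CPM in the other WT/mut libraries, against 51.1 to 72.3 CPM in WT (0.26 ± 0.17, edgeR adjusted p = 0.536).

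Among the sensors of viral RNA, Ddx58, which encodes RIG-I, had CPM values of 60.0, 63.0, 73.2, 77.6 and 71.9 against 46.6, 79.2, 73.0 and 59.5, all WT/mut values inside the WT range (0.10 ± 0.15, edgeR adjusted p = 0.814). Ifih1, the gene of MDA5, stood at 0.13 ± 0.18, and Dhx58, the gene of their regulator LGP2, at 0.37 ± 0.23. The sensors as a group did not separate the genotypes.

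Of the DNA-binding and nuclear proteins, Ifi203, a DNA-binding protein of the PYHIN family, had CPM values of 47.4, 56.7, 41.8, 61.7 and 54.0 in WT/mut and 31.7, 30.3, 32.9 and 52.3 in WT. WT replicate 5 lay within the WT/mut range and the other 3 WT libraries below it (0.51 ± 0.18, edgeR adjusted p = 0.329). Sp100, a component of nuclear bodies and the most abundant member of this group per length (89.2 CPM per kilobase in WT), had CPM values of 639, 567, 706, 675 and 775 against 727, 589, 588 and 791, with a log2 fold change of -0.000986 ± 0.12 (edgeR adjusted p = 0.998). Its groups covered nearly the same range. Ifi204 and Phf11b stood at 0.39 ± 0.28 and 0.04 ± 0.11. Reads of close family members, such as the IFIT, OAS, GBP and PYHIN genes, were shared between copies by the authors' model, so values of single copies are uncertain.

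The large differences were found among members of low level. Ordered by WT CPM per kilobase of exon, the upper 21 of the 41 tested members (8.66 to 158) held 3 of the 14 genes at an unadjusted p under 0.05 and had a median log2 fold change of 0.09. The lower 20 (0.171 to 5.67) held 11, with a median of 0.76. Of the 4 largest log2 fold changes, Ifit3, Usp18, Rsad2 and Rtp4 started from WT means of 1.16, 1.28, 0.825 and 6.82 CPM. This ordering was made after the values were seen and is a description. WT levels also enter the fold change, so the order and the fold changes are not independent. The values of all genes of like level were not computed.

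The libraries of a genotype were not alike in these genes. WT/mut replicate 10 had the highest value of all 9 libraries for 19 of the 42 members and stood above the WT mean for 41 of them. The median over members of log2(CPM + 1) minus the WT mean was 0.58 in replicate 10 and 0.34 in replicate 9, and between 0.15 and 0.16 in replicates 6, 7 and 8. WT replicate 1 had the lowest value for 14 members, among them Oas1a, Oas3 and Mx1. The same counts were not made over all genes, so a trait of the whole library cannot be told from one of the members. The members together took up 0.365% of the counts of replicate 10, 0.298 to 0.311% of the other WT/mut libraries and 0.272 to 0.302% of the WT libraries.

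**Figure D3:**
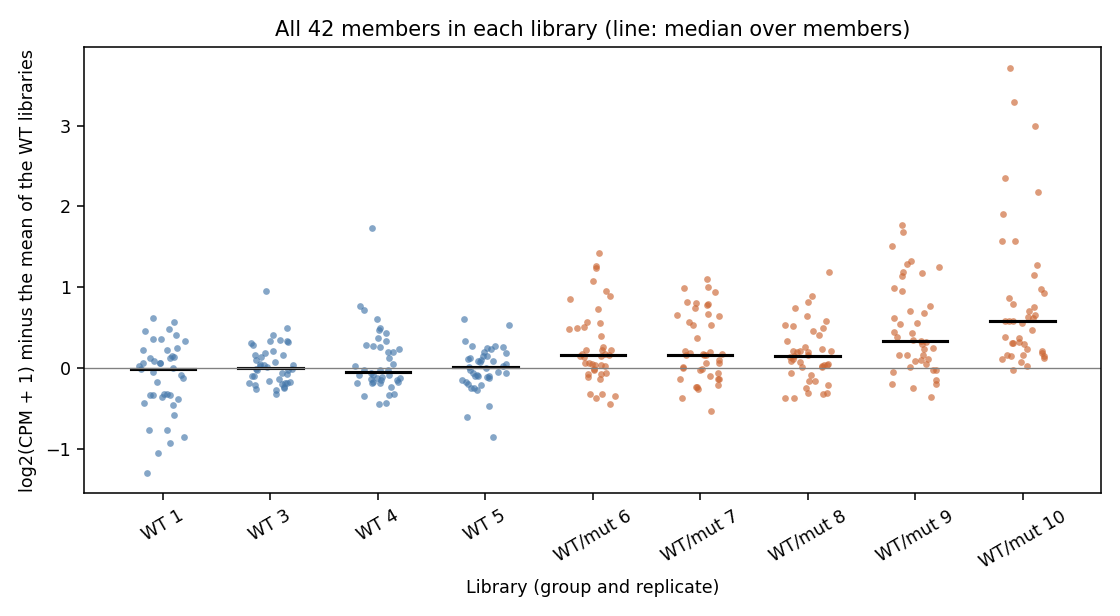
Each point is a member's log2(CPM + 1) minus its mean over the WT libraries, in each of the 4 WT and 5 WT/mut libraries, and the line is the median over the 42 members. WT medians lie near 0 because the WT mean is the reference, the medians of the WT/mut libraries lie between 0.15 and 0.58, and replicate 10 holds the highest points.

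Without WT/mut replicate 10 the count at an unadjusted p under 0.05 was 10 (5.68% of all tested genes were higher in this fit), all of them among the 14 (Bst2, Ifit3, Mx1 and Zbp1 were the ones lost). The median log2 fold change was then 0.17, with 31 of 41 positive. The difference between the fits was largest for Ifit3 (2.67 and 1.14), Ifit1 (1.35 and 0.24) and Usp18 (2.18 and 1.28). In all 9 fits that left out 1 library each, 8 members kept an unadjusted p under 0.05, namely Rtp4, Ifi27l2a, Oas1a, Ifit2, Rsad2, Xaf1, Usp18 and Parp14. The share of all tested genes that kept it in every fit was not computed, and these fits share most of their libraries. With WT/mut replicates 7 and 9 both left out, an alternative added after the data were seen, the count was 9, where 2.67% of all tested genes were higher. Bst2, Ifi203, Mx1, Oas3, Parp14 and Zbp1 were then lost from the 14, and Ifi44 was gained.

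**Figure D4:**
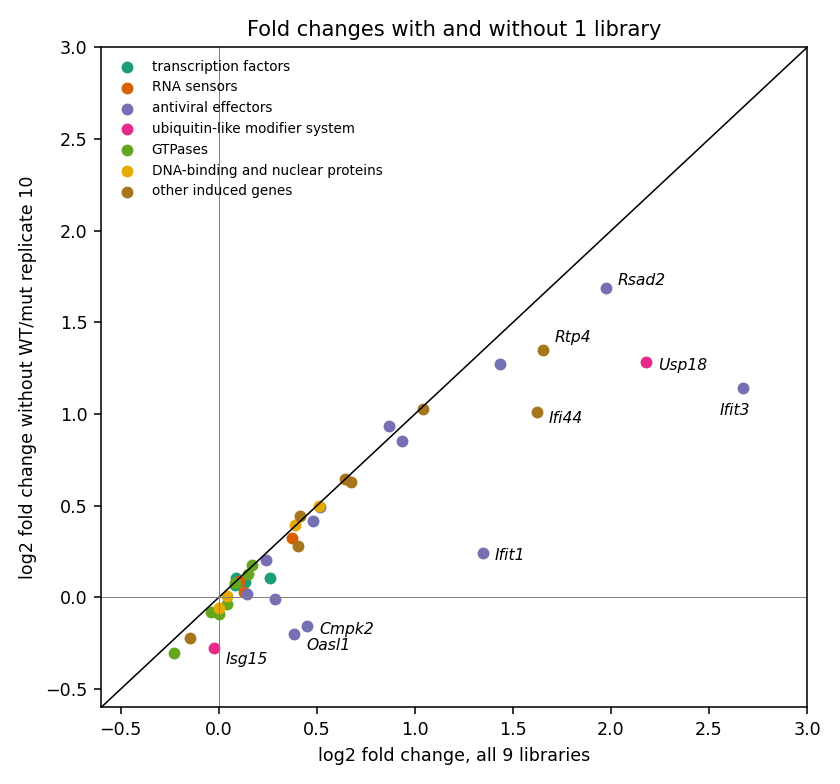
Log2 fold change of WT/mut over WT for the 41 tested members from all 9 libraries (x axis) and without WT/mut replicate 10 (y axis), coloured by role, with the line of equal values. Ifit3, Ifit1, Usp18, Ifi44, Cmpk2 and Oasl1 lie well below the line, and the GTPases lie close to it near 0.

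Markers of some cells outside the gate were also at higher shares in WT/mut libraries, and no list passed adjustment. Plasma cell markers (10 genes) made up 0.0542 to 0.156% of counts in WT/mut and 0.0216 to 0.0505% in WT (exact two-sided permutation p = 0.0317, adjusted p = 0.175 over 11 marker lists). Of the 8 tested, 5 were higher at an unadjusted p under 0.05 (5.69% of all tested genes were). Sdc1 (-0.21 ± 0.68) and Txndc5 (-0.03 ± 0.13) had negative log2 fold changes. Tnfrsf17 was too low to be tested, at 0 in every WT library and in WT/mut replicates 8, 9 and 10. B cell markers (12 genes, 4 of 12 higher at that level, none at 0) made up 0.0275 to 0.0588% and 0.0122 to 0.0337% (exact permutation p = 0.0635, adjusted p = 0.233). Red cell markers were at 0.0417 to 0.0884% and 0.00972 to 0.0287% (exact permutation p = 0.00794, the smallest that these groups allow, adjusted p = 0.0873), and 5 of 5 tested were higher at that level. Germinal centre B cell markers had overlapping shares (0.00741 to 0.0132% and 0.00847 to 0.0109%), with 4 of 7 higher and 1 lower at that level. Epithelial markers went the other way, with mean shares of 0.0142% in WT/mut and 0.0321% in WT and 10 of 11 tested fold changes negative. Replicate 10, the library highest in interferon response genes, had the lowest plasma cell and macrophage shares of the WT/mut libraries (0.0542% and 0.00749%) and the highest red cell share of all 9. WT/mut replicate 9, with the next highest member median, had the highest B cell share (0.0588%) and the lowest Tfh marker share (0.614%) of all 9. WT replicate 1 had the lowest plasma cell and B cell shares of all 9 (0.0216% and 0.0122%). WT replicate 4 had the highest of the WT libraries (0.0505% and 0.0337%). The part of these cells in the values of the members was not tested. With the plasma cell share as a covariate, 15 members were higher at an unadjusted p under 0.05 where 1.39% of all tested genes were, and the median log2 fold change was 0.65. The plasma cell share did not overlap between the genotypes (lowest WT/mut 0.0542%, highest WT 0.0505%). This fit could therefore not separate it from genotype, and its values are an extrapolation. The 15 members included 10 of the 14, without Mx1, Oas1a, Oas3 and Xaf1, and with Ifih1, Irf7, Irgm1, Isg15 and Stat2 besides. With the B cell share as a covariate there were 10 (3.12% of all genes), with a median of 0.27. These included 8 of the 14, without Ifi203, Mx1, Oas3, Parp14, Xaf1 and Zbp1, and with Gbp4 and Isg20 besides. Oas1a, Xaf1 and Parp14, which kept an unadjusted p under 0.05 without any 1 library, thus did not keep it with each covariate.

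Plasmacytoid dendritic cells, known for their interferon production, left little trace. Siglech was at 0 in 4 libraries and at most at 2.34 CPM, in WT replicate 1, and the share of their marker list, carried almost wholly by Pacsin1, was 0.00987 to 0.0142% in WT/mut and 0.00862 to 0.0159% in WT. The markers of Tfh cells themselves were present in every library, at 0.614 to 0.687% of counts in WT/mut and 0.646 to 0.781% in WT. Of these 8 markers 0 were higher and 3 lower in WT/mut at an unadjusted p under 0.05 (5.69% and 6.46% of all tested genes were). Icos, a costimulatory receptor, stood at -0.52 ± 0.09 (edgeR adjusted p = 0.0721) and Il21, the main cytokine of these cells, at -0.55 ± 0.12 (edgeR adjusted p = 0.142). For each of them every WT/mut library lay below every WT library, for Il21 narrowly (highest WT/mut 531.1 CPM, lowest WT 531.9 CPM). Cd3d stood at -0.24 ± 0.10. The part of this difference in the members' values was not tested. In sorted cells measured in bulk, more responding cells and more RNA per cell cannot be told apart.

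The genes that make and pass on the signal were read from a list of 125 further genes of the pathway, of which 102 were tested. Of 20 interferon genes only Ifng was tested, with CPM values of 1.29, 2.43, 1.14, 1.85 and 1.01 in WT/mut libraries and 0.633, 5.53, 0.727 and 0.807 in WT libraries, and with WT replicate 3 the highest library (-0.32 ± 0.69, edgeR adjusted p = 0.877). Ifnb1, the type I interferon gene of most cell types, was seen with 14 counts in replicate 7 of WT/mut alone, the library with the most detected genes, which also held all counts of Ifnab (15) and Ifna5 (4), and 9 interferon genes had no count in any library. Transcripts of type I ligands were thus at or close to 0 in both genotypes.

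Of the receptor chains, Ifngr2 was the member of lowest p. It had CPM values of 27.1, 23.6, 23.7, 25.1 and 19.2 in WT/mut and 46.2, 32.0, 39.2 and 35.6 in WT, with every WT/mut library below every WT library (-0.68 ± 0.14, edgeR adjusted p = 0.106). Its partner Ifngr1 (-0.12 ± 0.12) and the type I chains Ifnar1 (-0.02 ± 0.13) and Ifnar2 (0.05 ± 0.10) had values close to 0, and Il10rb, a chain shared with type III interferon, stood at -0.28 ± 0.12 (edgeR adjusted p = 0.399). Of the transducers, the kinase gene Tyk2 had means of 148 ± 19.2 CPM (SD, n = 5) for WT/mut and 110 ± 14.6 CPM (SD, n = 4) for WT (0.43 ± 0.13, edgeR adjusted p = 0.274). Jak1 (-0.09 ± 0.11) and Jak2 (-0.13 ± 0.08) differed less. None of the receptors and transducers named here passed the test.

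Among the other regulators, Tmem173, which encodes the DNA-sensing adaptor STING, had CPM values of 429, 411, 408, 370 and 460 in WT/mut and 525, 538, 507 and 490 in WT, all WT/mut libraries below all WT libraries (-0.31 ± 0.08, edgeR adjusted p = 0.246). Ticam1, the adaptor of TLR3, stood at 0.70 ± 0.38. The factors Irf8 and Irf5 were at 0.42 ± 0.18 and -0.28 ± 0.20, and the inhibitors Pias1 and Socs3 at -0.24 ± 0.11 and 0.34 ± 0.17, with edgeR adjusted p of 0.390 or above for these 4. Their values went in both directions.

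Of 70 further interferon-induced genes, 19 were higher and 3 lower in WT/mut at an unadjusted p under 0.05, and the median log2 fold change was 0.25. Of all tested genes 5.69% were higher and 6.46% lower at that level. After adjustment over all genes 1 was called in each direction (0.0322% of all tested genes were called higher and 0.0902% lower). Ly6a, which encodes the stem cell antigen Sca-1, rose from a WT mean of 10.6 ± 2.93 CPM (SD) to 40.9 ± 15.6 CPM, a log2 fold change of 1.95 ± 0.29 (edgeR adjusted p = 0.0334). Apol9b fell from a WT mean of 33.7 ± 5.93 CPM to 12.9 ± 2.75 CPM, a log2 fold change of -1.39 ± 0.18 (edgeR adjusted p = 0.0239), and its near-copy Apol9a stood at -1.21 ± 0.23 (edgeR adjusted p = 0.0864). The list was drawn up with earlier results of these data known, so the directions of its called genes only describe these genes.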

How the data were processed

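Messenger RNA of sorted CD4+ CXCR5+ PD1+ cells was made into libraries with a low-input SMART-Seq kit that does not mark the strand, per the labels' protocols. The authors deposited expected counts for each gene, not scaled between libraries, of which 11.1 to 18.3% per library are not whole. The build was mm10 and the tools were DESeq2, RSEM 1.3.0, STAR 2.5.3 and cutadapt 2.10, per the submitters' processing notes. Which annotation they used was not given in the sources used here. Counts were rounded here. Library totals lay between 29488783 and 43872686, and no pair of libraries within a genotype agreed within sampling noise (chi-square per gene from 28.0 to 224).

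Genes passing filterByExpr (minimum count 10, minimum total 15) were tested with edgeR 4.0.16 in R 4.3.3 (TMM factors, robust quasi-likelihood F test, 5 against 4 libraries, no covariate), with Benjamini-Hochberg adjustment over all of them and a threshold of 0.05. The SE was taken as the size of the log2 fold change over the root of F. The fit was tested on simulated data. Alternatives were DESeq2 1.42.0, limma-voom (limma 3.58.1), other size factors and filters, 3 covariates and leaving out libraries. Levels per kilobase use the summed exon length in GENCODE M21.

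The members, lists and roles were chosen with earlier results of these data known, so the list is described by counts and medians and has no test of its own. The text gives library values for the 14 tested members of lowest p, those with a negative fold change and the member of highest WT level per kilobase in each role, and for the pathway list the called genes, the 2 of lowest p in each part and the receptors and transducers, of which 1 is not reported here. Other named genes were chosen after their values were seen.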

Additional observations from a re-analysis of the deposited data

Results flagged for a closer look

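In 14 of 84 groups of libraries (42 members, 2 genotypes) the highest or lowest library stood far from the rest by Dixon's criterion on CPM values. Its rate of about 1 in 20 groups holds for independent, normally spread values. The members share their libraries and CPM values are not normally spread, so the count cannot be set against that rate. WT/mut replicate 10 was far above the other WT/mut libraries for Ifit1 (56.0 CPM, next 11.8), Ifit3 (26.7, next 4.02), Cmpk2 (17.8, next 6.97), Isg15 (44.1, next 24.1) and Usp18 (16.5, next 4.18). Replicate 8 was far below them for Ifit2 (24.2 CPM, next 30.7). Replicate 6 was highest for Ifi204 (5.98 CPM, next 4.19) and replicate 9 for Trim30a (85.3 CPM, next 48.4). Among WT libraries, replicate 1 was lowest for Mx1 (2.28 CPM, next 7.20) and for Trim30a (18.8 CPM, next 44.9). Replicate 4 was highest for Gbp3 (46.4 CPM, next 36.4) and replicate 5 for Ifi203 (52.3 CPM, next 32.9). Oas2 was at 0.875 CPM in WT/mut replicate 8 and at 0.0633 CPM in WT replicate 1, and at 0 in all other libraries.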

How the results depend on the processing

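Of 19 alternatives DESeq2 called 8 members and the others, with edgeR or limma-voom, called 0. Over all genes edgeR called 19, DESeq2 called 483, and edgeR called 0 with the plasma cell share, 1 with the number of detected genes, 2 to 23 without 1 library in turn and 1 without WT/mut replicates 7 and 9. The median log2 fold change of all genes was 0.30 with DESeq2 and 0.39 without a filter, where more low genes were included. The count of members higher at an unadjusted p under 0.05 lay between 10 and 15 without 1 library in turn (4.26 to 8.83% of all tested genes were higher in these fits) and was 9 without WT/mut replicates 7 and 9 (2.67%). The count of lower members was 0 to 1 without 1 library in turn (1 without WT replicate 3). The median log2 fold change lay between 0.17 and 0.43 without 1 library in turn and was 0.65 with the plasma cell share as a covariate. That share did not overlap between the genotypes. Of the values of single members under these alternatives, 705 kept their sign and their side of the threshold. Another 8 passed it with DESeq2, and 66, in 15 members, changed sign. No paired analysis was possible because the genotypes share no replicate number.

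The following log2 fold changes had a sign other than with all libraries and no covariate, and the cause was not tested. With the B cell share as a covariate they were -0.097 (Irf1), -0.17 (Ddx58), -0.047 (Oasl1), -0.29 (Oasl2), 0.34 (Isg15), 0.082 (Gbp2), 0.27 (Gbp7), 0.064 (Igtp), 0.12 (Sp100), 0.21 (Ifi35) and -0.23 (Trim30a). With the plasma cell share they were -0.20 (Irf1), 0.90 (Isg15), 0.17 (Gbp2), -0.069 (Gbp3), 0.27 (Gbp7), 0.19 (Igtp), 0.38 (Sp100) and 0.26 (Ifi35). With the number of detected genes they were 0.047 (Isg15), 0.011 (Gbp7) and 0.059 (Sp100). Without WT/mut replicates 7 and 9 they were -0.11 (Oasl2), 0.083 (Isg15), 0.048 (Gbp7), -0.024 (Irgm1) and 0.069 (Sp100). For Gbp7 and Sp100 the values were 0.00044 and 0.0011 with DESeq2, 0.0047 and 0.0044 with RLE size factors, 0.0095 and 0.0045 with limma-voom, 0.0063 and 0.0091 without a filter, 0.014 and 0.013 with the stricter filter and 0.039 and 0.033 with library size only, where Isg15 was at 0.013. Without 1 library in turn the ranges were -0.0061 to 0.19 for Irf1, -0.024 to 0.21 for Ddx58, -0.20 to 0.61 for Oasl1, -0.13 to 1.02 for Oasl2, -0.16 to 0.69 for Cmpk2, -0.28 to 0.10 for Isg15, -0.13 to 0.054 for Gbp2, -0.090 to 0.14 for Gbp7, -0.036 to 0.13 for Irgm1, -0.061 to 0.085 for Sp100, -0.0094 to 0.14 for Phf11b and -0.24 to 0.049 for Ifi35.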
